A study of Mus musculus with 8 samples.

Results

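A set of 32 genes for the actin contractile machinery and its transcriptional control was followed in MLO-Y4, a mouse osteocyte cell line. They were chosen by gene symbol among the 16369 genes of the deposited expression table, and all 32 had a row. The set held 5 actins, 5 transgelins and calponins, 5 genes for tropomyosins and caldesmon, 8 for myosin chains and their kinases, 3 for serum response factor (SRF) and its coactivators, 2 for actin turnover, and 4 for muscle scaffold and filament proteins. The cells of all 8 libraries lay in fluid chamber slides and were sheared by flow at 2 Pa, over 4 cycles. In 4 of them, given the genotype H19 silenced, an antisense oligonucleotide (ASO) was used against the long non-coding RNA H19. The other 4, given the genotype WT and named NC in the table, were controls, and what they received in place of the ASO is not stated, since the treatment text is the same for all samples. No library came from cells without flow, so the comparison describes the ASO under flow.

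Actin monomers join into filaments, and non-muscle or muscle myosin pulls on them once its light chain is phosphorylated, by myosin light chain kinase among others. Tropomyosins, calponins, caldesmon and transgelins bind along the filament and set how myosin and other proteins reach it. Free actin monomers hold the coactivators MRTF-A and MRTF-B in the cytoplasm. When monomers are used up in filaments, these coactivators enter the nucleus and act with SRF on genes with a CArG box, many of which encode the actin machinery itself. Osteocytes carry an actin-rich cell body and processes that are deformed by fluid flow.

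The CArG box, the site that SRF binds, was looked for in promoter windows from 250 bases before to 50 bases after a start listed for the gene (RefSeq, GRCm38.p6). Such a start is not always the outermost one of the gene. Windows were on hand for 28 of the 32 members, and 7 of these (25.0%) held a box, against 1.81% of 27025 genes with a window. Both strands were covered, since the box reads the same way on each. Members were in part known as SRF targets beforehand, so this share describes the set and is not a finding about the ASO. The 4 windows shown are those of Acta1 and Srf, which fell with the ASO, and of Actg1 and Myl9, which did not pass the test, with each CArG box in capitals.
Acta1 (chr8:123894726-123895025, minus strand): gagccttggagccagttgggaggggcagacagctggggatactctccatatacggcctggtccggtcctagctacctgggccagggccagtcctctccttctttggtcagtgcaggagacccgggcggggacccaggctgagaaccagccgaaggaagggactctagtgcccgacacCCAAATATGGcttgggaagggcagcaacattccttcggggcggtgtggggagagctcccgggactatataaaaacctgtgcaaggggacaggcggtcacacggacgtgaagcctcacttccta
Srf (chr17:46556113-46556412, minus strand): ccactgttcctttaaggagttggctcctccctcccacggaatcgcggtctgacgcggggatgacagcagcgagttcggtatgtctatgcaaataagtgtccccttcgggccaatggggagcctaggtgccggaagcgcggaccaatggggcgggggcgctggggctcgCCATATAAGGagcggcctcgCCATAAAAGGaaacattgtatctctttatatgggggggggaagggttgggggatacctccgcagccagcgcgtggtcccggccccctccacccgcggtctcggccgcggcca
Actg1 (chr11:120348446-120348745, minus strand): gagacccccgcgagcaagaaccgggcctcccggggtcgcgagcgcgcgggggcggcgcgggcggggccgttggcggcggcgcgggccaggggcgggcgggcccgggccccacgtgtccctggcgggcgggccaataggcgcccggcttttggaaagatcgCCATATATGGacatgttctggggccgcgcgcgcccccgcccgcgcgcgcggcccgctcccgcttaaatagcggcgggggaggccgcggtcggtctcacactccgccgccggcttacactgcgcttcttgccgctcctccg
Myl9 (chr2:156775214-156775513, plus strand): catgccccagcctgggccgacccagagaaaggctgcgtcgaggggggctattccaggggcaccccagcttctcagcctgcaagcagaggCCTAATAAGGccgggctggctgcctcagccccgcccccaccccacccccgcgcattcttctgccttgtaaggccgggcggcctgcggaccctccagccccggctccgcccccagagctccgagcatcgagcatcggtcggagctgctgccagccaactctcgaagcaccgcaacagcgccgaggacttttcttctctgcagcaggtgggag
The box of Acta1 (CCAAATATGG) began 73 bases before the start, and that of Actg1 (CCATATATGG) 90 bases before it. Srf held 2 boxes, CCATATAAGG at 82 and CCATAAAAGG at 62 bases before the start, in a gene whose own product binds such boxes. Myl9 held CCTAATAAGG at 161 bases. The others were Cnn2 and Filip1l, both with CCTTATAAGG, at 56 and 62 bases, and Myl6 with CCTTATATGG at 50 bases. Distances are to the start used for the window. The windows of Srf, Mylk, Pfn1, Tpm1 and Mrtfb lie inside the span of the gene, as do those of Filip1l and Myl6 that held a box. Some windows of Cald1, Mrtfa and Tpm3 do as well. Of the lower members, Tagln and Actg2 had no window on hand and were not searched. By outcome, 2 of 6 lower members with a window held a box, as did 0 of 2 higher members and 5 of 19 that did not pass. Boxes thus occurred both in members that fell and in members that did not pass, and no match means only that these letters are absent from that window. Of other motifs searched on both strands, CATTCC was in 12 of the 28 members with a window (42.9%, against 16.6% of all genes) and TATAAA in 4 (14.3%, against 15.7%).

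Libraries held 19501984 to 19914209 estimated reads, and 14.6% of 12227 tested genes differed between ASO and control by edgeR's quasi-likelihood test (4 libraries a group, p adjusted by Benjamini-Hochberg, threshold 0.05). That total of 1790 genes was 1105 when control replicate 2 was left out, 1191 when ASO replicate 3 was, and 1129 when ASO replicate 4 was. Separate cultures are not mentioned, so a p-value here reflects no more than the spread among these samples, and that spread may be technical. An earlier look at these data divided samples 1 and 2 of both groups from samples 3 and 4, and values with this division as a term, or within each side of it, are given where a call changed. No sample label gives this division, and it was drawn from the same data. A p-value with it as a term, or within either side of it, may therefore be too small. Calls gained in this way are not counted as results. Of the defining osteocyte genes, Pdpn was high (169.5 TPM in controls), Phex and Dmp1 were low (2.92 and 1.14 TPM), and Mepe and Sost had 2 and 4 reads over all libraries. With the ASO, Dmp1 was lower (log2 fold change -1.46, adjusted p = 0.012) and Pdpn higher (0.22, adjusted p = 0.031), the latter lost in 5 of the 8 fits without 1 library and in samples 1 and 2 alone (adjusted p = 0.093). TPM is transcript abundance scaled to gene length and library, so that levels of different genes can be compared, and CPM is the read count scaled to library size.

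With the ASO, 8 of 31 tested members were lower and 2 were higher, 32.3% of those tested against 14.6% of all tested genes. For all tested genes the shares were 7.53% lower and 7.11% higher. The lower members were Acta1, Tagln, Mylk, Lmod1, Des, Actg2, Srf and Cnn3, and the higher ones Pfn1 and Tagln2. In 10 members, Tpm2 and all called ones except Srf, the ASO and control libraries did not overlap, and this held for 19.1% of all tested genes. The log2 fold change was below 0 in 24 members and above 0 in 7, with a median of -0.14 against 0.0026 over all tested genes. The remaining member, Myh10, which encodes a heavy chain of non-muscle myosin II, had 1 read in control replicate 1, 1 read in ASO replicate 3 and none in the other libraries. It was below the filter on low counts, and with 0 reads a gene could still lie at up to 0.15 to 0.16 CPM, the level of 3 reads, which covers only counting error and not how the gene was annotated or counted.

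**Figure D1:**
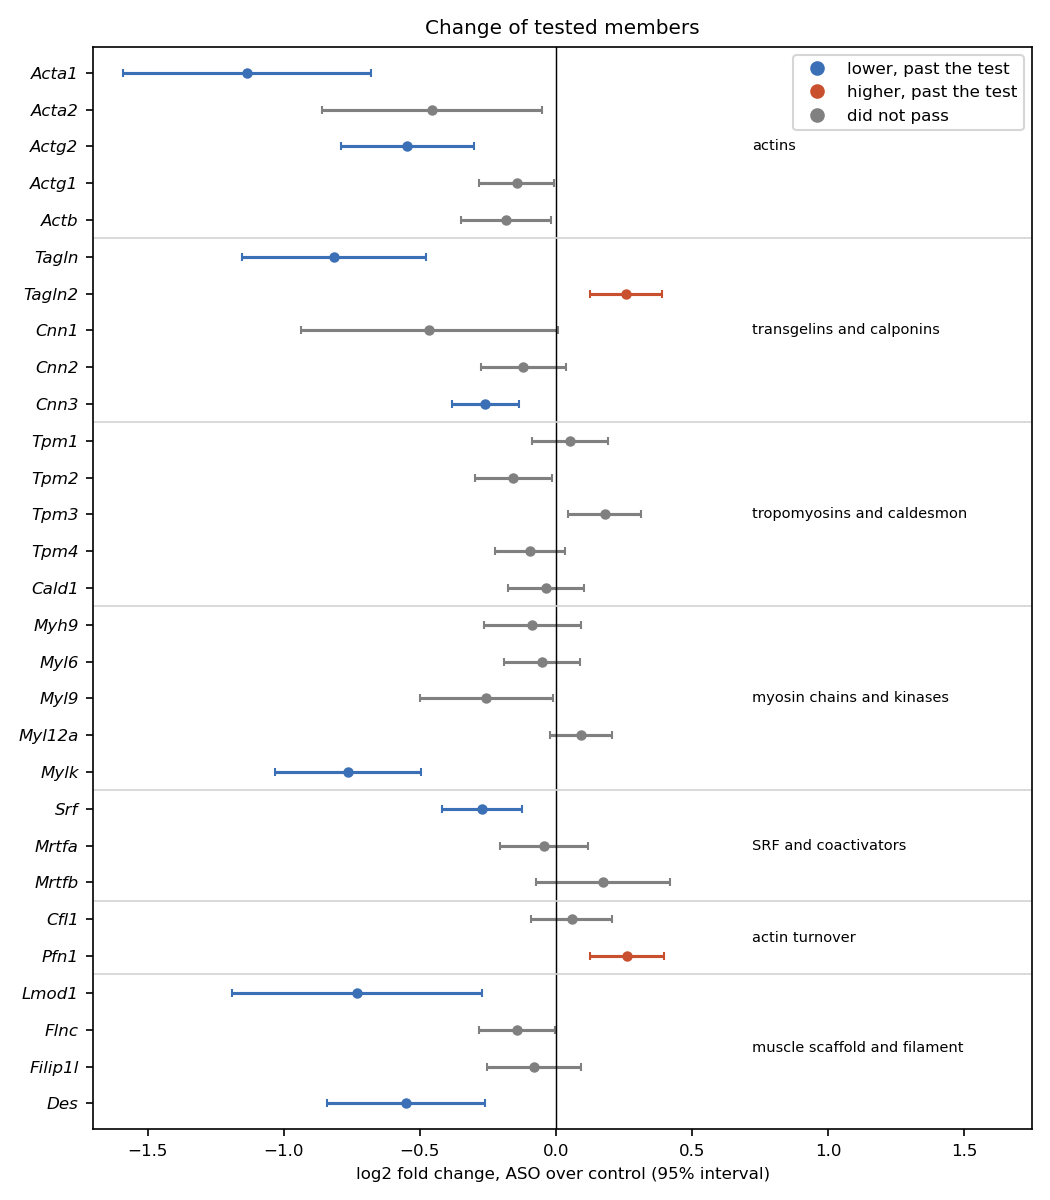
Log2 fold change of ASO over control with its 95% interval for 29 of the 31 tested members, grouped by role, with members past the test in blue (lower) or red (higher). The lower members with the widest shift are Acta1, Tagln, Mylk and Lmod1, and the 2 higher ones, Tagln2 and Pfn1, lie near 0.26.

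The members differed widely in level, and those with the larger falls were at low levels. In control libraries Actg1 had the highest level (5498 ± 214 TPM, SD, n = 4), followed by Actb (2759 ± 288), Cfl1 (2006 ± 60.6), Myl6 (1510 ± 73.4) and Pfn1 (1254 ± 63.5). Myl12a, Cnn2, Tpm1, Tpm4, Myh9, Tpm2 and Tagln2 lay between 787.4 and 403.8 TPM, and within this stretch the control values of Tpm4 (473.4 to 524.5 TPM) and Myh9 (437.2 to 481.3 TPM) overlapped. Tpm3, Cnn3, Flnc, Srf, Cald1 and Myl9 lay between 282.3 and 164.7 TPM. Below them, Filip1l, Mrtfa, Tagln and Actg2 had 48.9 to 33.6 TPM, Acta1, Mrtfb and Mylk 11.5 to 9.09, and Cnn1, Acta2, Des and Lmod1 5.21 to 1.22. Together the 32 members made up 1.80% to 1.93% of all TPM in controls and 1.67% to 1.85% in ASO libraries, which overlapped. A muscle-type group of 8 members (Acta1, Acta2, Actg2, Tagln, Cnn1, Mylk, Lmod1 and Des) was drawn up after their values had been seen, so it gets no test, and it leaves out Flnc, the muscle filamin gene, at 242.0 TPM and a log2 fold change of -0.14. It also leaves out Myl9 (-0.26), a light chain gene of smooth muscle and non-muscle myosin, and Tpm1 (0.05), Tpm2 (-0.16) and Cald1 (-0.04). None of these passed, so its counts depend on which members were put in it. The 8 lay between 1.22 and 38.1 TPM in controls, 6 of them were lower, and their log2 fold changes ran from -1.13 to -0.46. Of all tested genes with 1 to 50 TPM in controls, 13.1% were called and 7.66% were lower, and their median log2 fold change was -0.010. Among the other 23 tested members 2 were lower and 2 higher, with log2 fold changes from -0.27 to 0.26.

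**Figure D2:**
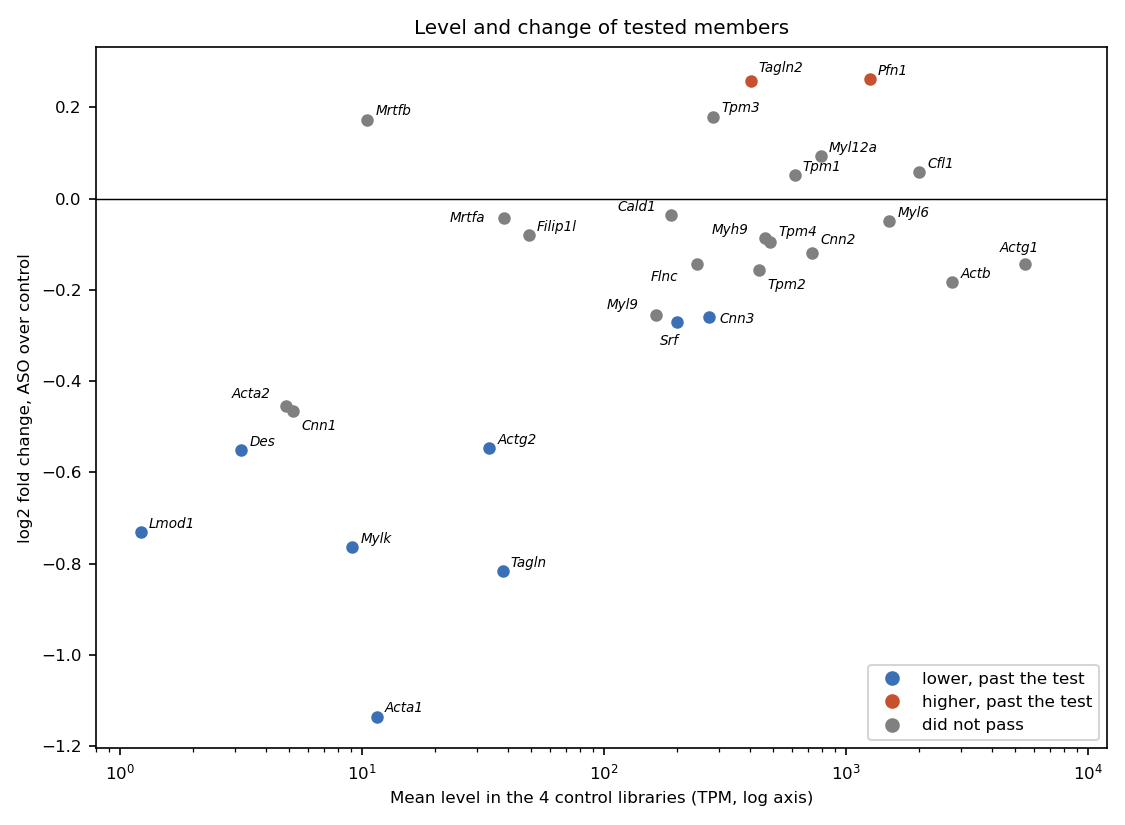
Mean TPM of the 4 control libraries (log axis) against the log2 fold change of ASO over control for 29 of the 31 tested members. Members under 50 TPM include the 6 with the largest falls, and members above 100 TPM lie between -0.27 and 0.26.

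Among the actins, 2 of 5 were lower and 0 higher. Acta1 encodes the alpha actin of skeletal muscle (gene 11459, chromosome 8, 123891758 to 123894775, GRCm38.p6). Its CPM values were 6.88, 7.89, 9.01 and 11.6 in control replicates 1 to 4, and 5.65, 3.24, 4.58 and 2.65 in ASO replicates 1 to 4. All ASO libraries lay below all controls, and the mean went from 8.85 ± 2.03 CPM to 4.03 ± 1.35 CPM (SD, n = 4, log2 fold change -1.13 ± 0.21 SE, edgeR adjusted p = 0.0039). Within samples 1 and 2 alone its log2 fold change was -0.73 (adjusted p = 0.072), and within samples 3 and 4 alone -1.51 (adjusted p = 1.2e-06), a difference that was not tested. Actg2 encodes the gamma actin of smooth muscle (gene 11468, chromosome 6, 83512909 to 83536251). It had 20.6, 24.0, 20.6 and 23.8 CPM in controls and 17.5, 12.2, 17.6 and 13.8 CPM in ASO libraries, again without overlap (log2 fold change -0.55 ± 0.11, adjusted p = 0.0066). Acta2, the alpha actin gene of smooth muscle and myofibroblasts, ranged from 5.03 to 7.52 CPM in controls and from 3.24 to 6.39 CPM with the ASO, so the groups overlapped. Its log2 fold change was -0.46 ± 0.19 (adjusted p = 0.12), with an adjusted p = 0.045 when ASO replicate 3 was left out.

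The cytoplasmic actins, which form the filaments of non-muscle cells, did not pass. Actg1 had 5512 to 5958 CPM in controls and 4781 to 5577 CPM with the ASO (log2 fold change -0.14 ± 0.06, adjusted p = 0.15). Actb had 2541 to 3218 and 2374 to 2674 CPM (-0.18 ± 0.08, adjusted p = 0.13). Within samples 3 and 4 alone the log2 fold change of Actb was -0.32 (adjusted p = 0.0085), and its adjusted p was 0.049 with the division as a term. Neither is counted as a result, since the division was drawn from these data. The 3 muscle actins held 0.567% to 0.640% of the TPM of the 5 actins in controls and 0.349% to 0.484% in ASO libraries, with no overlap. Actins are close relatives, and 45.6% of the 50-base words of Actg1 transcripts and 12.2% of those of Actb also occur in transcripts of other genes (GENCODE M21). For Acta1, Acta2 and Actg2 the share was 2.02%, 0.326% and 0%, and their deposited counts were whole in all libraries. Counts of Actb were not whole in 8 libraries, and those of Actg1 in 2, so the levels of these actins are uncertain. The shared words of Acta1 were most often those of Actb, and those of Acta2 of Actg1, both far more abundant. Whether reads of the cytoplasmic actins entered the low counts of the muscle actins was not tested.

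Transgelins and calponins, which bind along actin filaments, divided within their families: 2 of 5 were lower and 1 was higher. Tagln encodes transgelin, a marker of smooth muscle and of contractile fibroblasts (gene 21345, chromosome 9, 45929628 to 45936058). Its CPM values were 24.8, 29.1, 35.6 and 37.9 in controls and 18.3, 12.7, 23.0 and 18.3 in ASO libraries. The highest ASO library stayed below the lowest control (log2 fold change -0.82 ± 0.16, adjusted p = 0.0044). Its relative Tagln2, found in many cell types (gene 21346, chromosome 1, 172500246 to 172507375), went the other way, with 278.4, 259.9, 311.9 and 288.8 CPM in controls and 343.2, 328.3, 345.7 and 345.0 CPM with the ASO. These groups did not overlap either (0.26 ± 0.06, adjusted p = 0.014), though in samples 3 and 4 alone the adjusted p = 0.073. Tagln made up 8.60% ± 1.22 of the TPM of the pair in controls and 4.27% ± 0.88 in ASO libraries (SD, n = 4), without overlap.

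Of the calponins, Cnn3, the acidic calponin of non-muscle cells (gene 71994, chromosome 3, 121426541 to 121458205), was lower. It had 291.3, 310.2, 293.7 and 305.8 CPM in controls and 263.0, 247.8, 260.4 and 232.6 CPM with the ASO (log2 fold change -0.26 ± 0.06, adjusted p = 0.0095), with no overlap. In samples 1 and 2 alone the adjusted p = 0.059. Cnn2, the most abundant calponin, did not pass (-0.12 ± 0.07, adjusted p = 0.29, and 0.048 without ASO replicate 1). Cnn1, the calponin of differentiated smooth muscle, had 3.24 to 4.04 CPM in controls and 1.62 to 3.82 CPM with the ASO (-0.47 ± 0.22, adjusted p = 0.17). Its 95% interval, from -0.94 to 0.0080, covers falls as large as that of Tagln. Cnn3 made up 26.7% to 28.0% of calponin TPM in controls and 23.5% to 26.5% with the ASO. Of its 50-base words, 14.1% are shared with other genes, first of all Gm4815, so its level is less certain, though its counts were whole in all libraries.

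**Figure D3:**
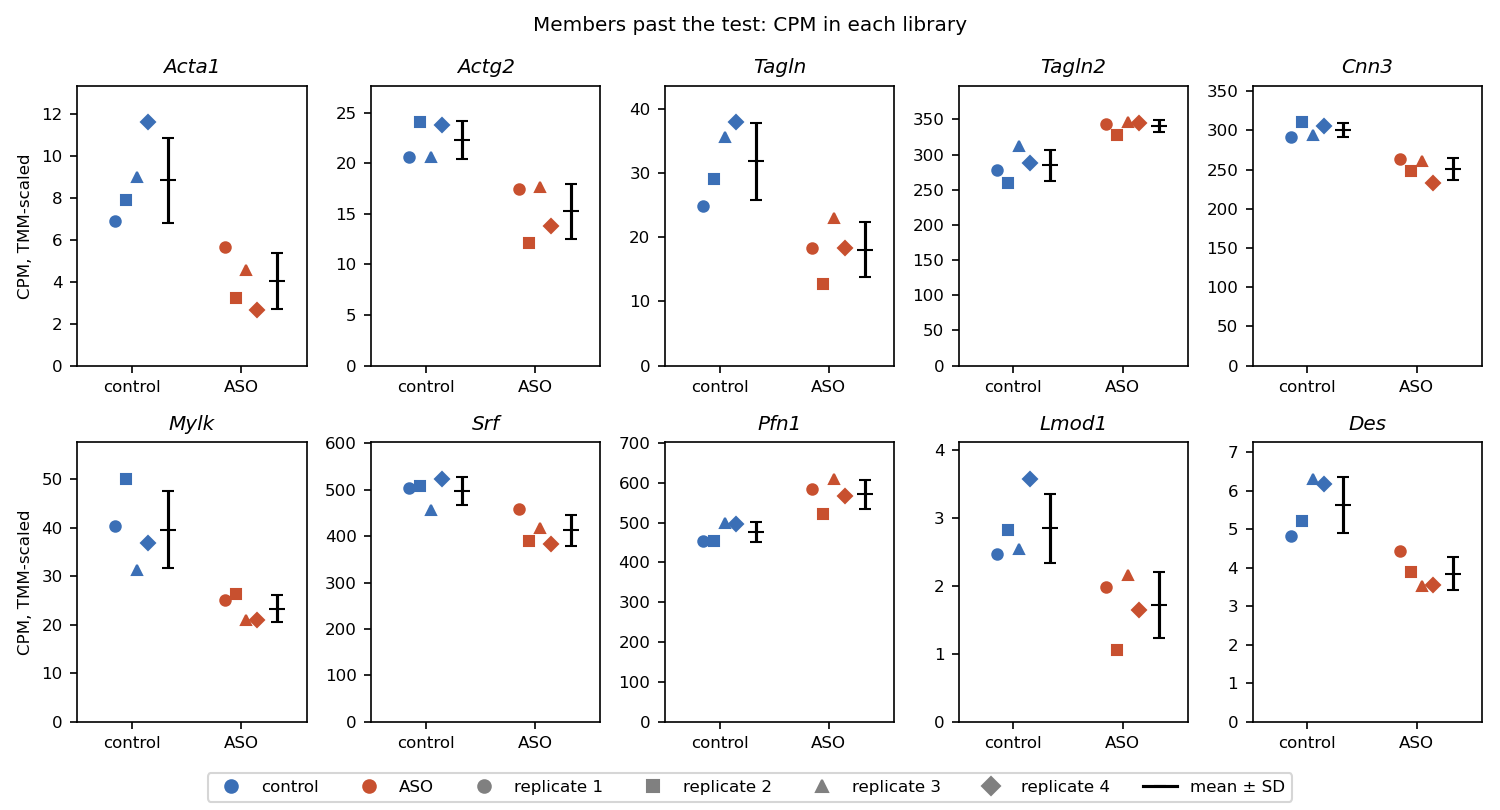
CPM after TMM scaling (a scaling for differences in library composition) in each of the 4 control and 4 ASO libraries for the 10 members past the test, with symbols for replicates and bars for mean ± SD. The groups do not overlap in any of these members except Srf, where ASO replicate 1 lies above control replicate 3.

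Tropomyosins, which lie along the filament groove and select which myosins and other proteins bind it, gave 0 calls in either direction, and neither did caldesmon (edgeR adjusted p under 0.05). At an unadjusted p under 0.05 there were 2, Tpm2 and Tpm3. Tpm2 had 419.2 to 461.6 CPM in controls and 357.2 to 415.7 CPM with the ASO, with no overlap (log2 fold change -0.16 ± 0.07, adjusted p = 0.13). Tpm3 had 334.5 to 388.4 and 382.8 to 428.8 CPM (0.18 ± 0.06, adjusted p = 0.071). Tpm3 passed with the replicate block (adjusted p = 0.028), with DESeq2 (adjusted p = 0.040), with the division as a term (adjusted p = 0.00996) and without control replicate 3 (adjusted p = 0.037). Tpm3 made up 14.8% to 16.3% of tropomyosin TPM in controls and 16.7% to 18.5% with the ASO, without overlap. The shares of Tpm1, Tpm2 and Tpm4 overlapped between the groups. However, 40.0% of the 50-base words of Tpm3 are shared with other genes, first of all Tpm3-rs7, so its counts are uncertain. Tpm1 (0.05 ± 0.07), Tpm4 (-0.09 ± 0.06) and Cald1 (-0.04 ± 0.06) had 95% intervals of -0.09 to 0.19, -0.22 to 0.03 and -0.18 to 0.10 for the log2 fold change.

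**Figure D4:**
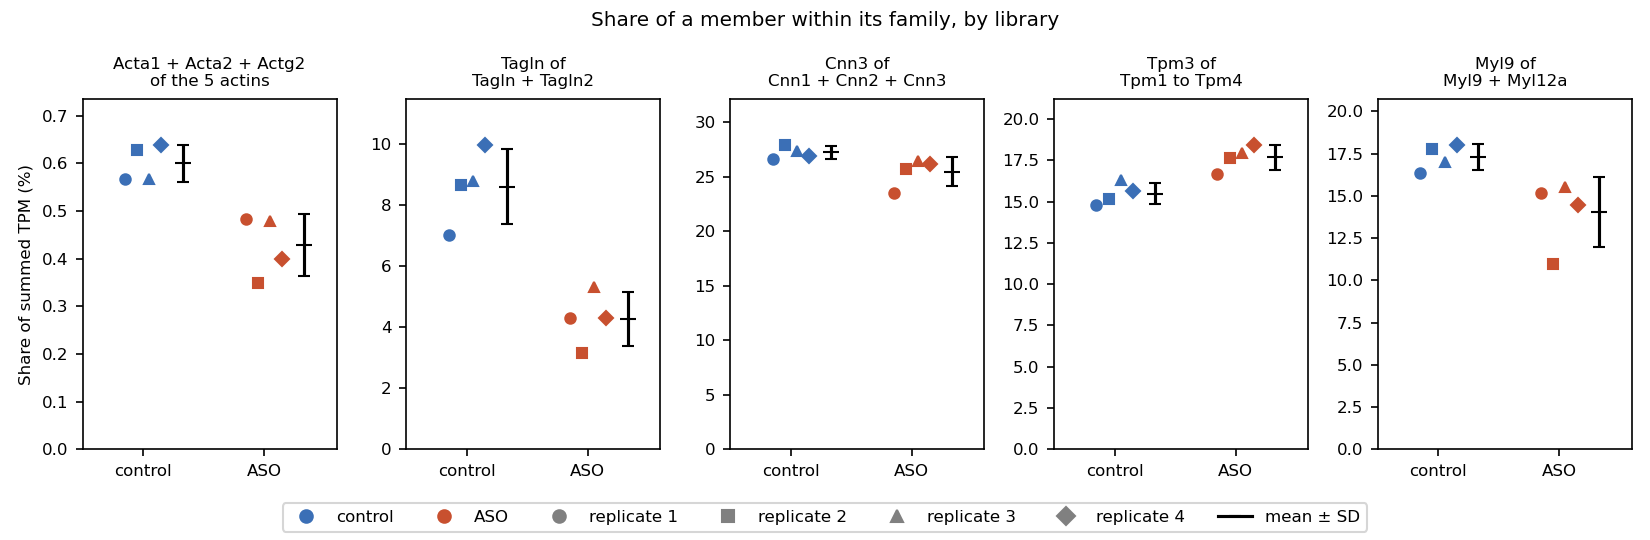
Share of summed TPM that a member or group of members held within its family, in percent, for each library, with bars for mean ± SD. The muscle actins, Tagln, Cnn3 and Myl9 hold smaller shares in all ASO libraries than in any control, and Tpm3 a larger one. Those shown were picked among shares without overlap, and no share was tested. Among the other shares computed, those of Actg1, Cnn1, Tpm1, Tpm2, Tpm4 and Mrtfa overlapped between the groups.

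Of 7 tested genes for myosin chains and kinases, 1 was lower and 0 were higher. Mylk encodes myosin light chain kinase, which starts contraction in smooth muscle and non-muscle cells (gene 107589, chromosome 16, 34745199 to 35002436). It had 40.4, 50.1, 31.2 and 36.8 CPM in controls and 25.0, 26.3, 20.9 and 21.1 CPM in ASO libraries. No ASO library reached the lowest control, and the call had the smallest p of the set (log2 fold change -0.76 ± 0.12, adjusted p = 0.0017). It held within samples 1 and 2 (-0.82) and within samples 3 and 4 (-0.69).

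The myosin chains themselves did not pass. Myh9, the heavy chain of non-muscle myosin IIA, had 2004 to 2209 CPM in controls and 1694 to 2330 CPM with the ASO (log2 fold change -0.09 ± 0.08, adjusted p = 0.51). Myh10 is not set beside it, since the annotation and counting behind its near absence of reads are not known. Myl9, a regulatory light chain of smooth muscle and non-muscle myosin, had 78.0 to 94.1 CPM in controls and 52.1 to 82.5 CPM with the ASO (-0.26 ± 0.11, adjusted p = 0.15). It passed with the division as a term (adjusted p = 0.046), and its lowest value was that of ASO replicate 2. Myl12a, another regulatory light chain, was at 0.09 ± 0.05 (adjusted p = 0.26), and Myl9 made up 17.3% ± 0.77 of the TPM of the 2 chains in controls and 14.0% ± 2.09 with the ASO, without overlap. Myl12a counts were not whole in 8 libraries, and 19.1% of its 50-base words are shared, mostly with Myl12b. The share of Myl9 leaves out Myl12b (328.4 TPM in controls), so it depends on how reads of Myl12a and Myl12b were divided. The essential light chain gene Myl6 was at -0.05 ± 0.07 (adjusted p = 0.64).

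Srf was lower, while its coactivator genes did not pass. Srf (gene 20807, chromosome 17, 46546838 to 46558267) had 503.3, 507.8, 455.5 and 523.8 CPM in controls and 458.8, 389.0, 417.6 and 383.8 CPM with the ASO. ASO replicate 1 lay just above control replicate 3, so the groups overlapped by that pair (log2 fold change -0.27 ± 0.07, adjusted p = 0.019). The call ended without control replicate 2 (adjusted p = 0.051), control replicate 4 (0.058) or ASO replicate 4 (0.055). It also ended in samples 1 and 2 alone (0.079). Mrtfa, which encodes MRTF-A, had 88.2 to 111.7 CPM in controls and 90.9 to 106.6 CPM with the ASO (-0.04 ± 0.08, adjusted p = 0.74). Mrtfb had 43.7 to 58.4 and 48.4 to 69.4 CPM (0.17 ± 0.11, adjusted p = 0.33), with an adjusted p = 0.032 once the division was a term. The activity of these coactivators depends on where the protein lies in the cell, which was not measured.

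Pfn1 encodes profilin, which binds actin monomers and feeds them to growing filaments (gene 18643, chromosome 11, 70651844 to 70656799). It had 453.8, 453.9, 498.9 and 496.6 CPM in controls and 583.7, 521.6, 609.9 and 567.2 CPM with the ASO. All ASO libraries lay above all controls (log2 fold change 0.26 ± 0.06, adjusted p = 0.015), and without ASO replicate 3 the adjusted p = 0.0502. Cfl1, the gene of cofilin, which severs filaments, was at 0.06 ± 0.07 (adjusted p = 0.61), with 1129 to 1210 CPM in controls and 1081 to 1353 CPM with the ASO.

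Of the muscle scaffold and filament genes, 2 of 4 were lower, both at low levels. Des encodes desmin, the intermediate filament protein of muscle (gene 13346, chromosome 1, 75360292 to 75368579). It had 4.83, 5.22, 6.31 and 6.19 CPM in controls and 4.43, 3.90, 3.52 and 3.55 CPM with the ASO, without overlap (log2 fold change -0.55 ± 0.13, adjusted p = 0.016). Its log2 fold change was -0.27 in samples 1 and 2 alone (adjusted p = 0.40) and -0.82 in samples 3 and 4 alone (adjusted p = 0.0015), a difference that was not tested. Lmod1 encodes leiomodin, which nucleates actin filaments in smooth muscle (gene 93689, chromosome 1, 135324813 to 135368065). It had 2.47, 2.82, 2.55 and 3.58 CPM in controls and 1.98, 1.06, 2.16 and 1.65 CPM with the ASO, from 21 to 70 reads per library (-0.73 ± 0.21, adjusted p = 0.036). The call of Lmod1 ended in 4 of the fits with 1 library left out, namely control replicate 2 (adjusted p = 0.071) or 4 (0.11) and ASO replicate 2 (0.077) or 4 (0.082). It also ended in samples 1 and 2 alone (0.13) and in samples 3 and 4 alone (0.058). Flnc, the muscle filamin gene, which was abundant here (1368 ± 87.5 CPM in controls), was at -0.14 ± 0.06 (adjusted p = 0.15). Filip1l, whose product is related to a filamin-interacting protein, was at -0.08 ± 0.08 (adjusted p = 0.54).

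**Figure D5:**
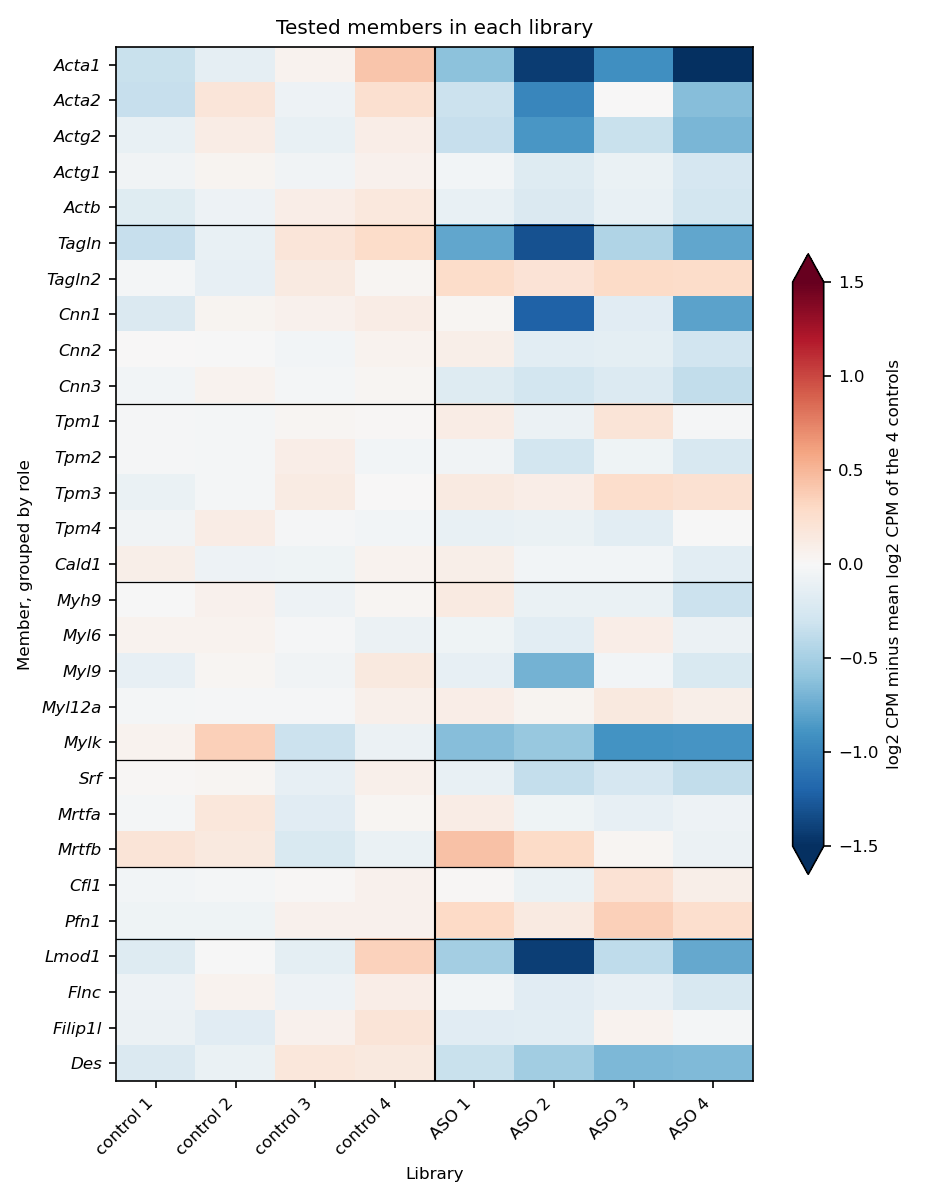
Log2 CPM of 29 of the 31 tested members in each library, minus the mean log2 CPM of the 4 controls, with members grouped by role (lines) and arrows on the colour scale for values beyond its ends. ASO replicate 2 has the lowest ASO value for 5 of the 8 muscle-type members, and Tagln2 and Pfn1 lie above the control mean in all 4 ASO libraries. The muscle-type group was drawn up after its values had been seen, and the lowest library was not counted over all tested genes.

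The ASO libraries were not alike in how low these genes were. ASO replicate 2 held the lowest ASO value for 14 of 31 tested members and for 5 of the 8 muscle-type ones (Acta2, Actg2, Tagln, Cnn1 and Lmod1). ASO replicate 4 held it for 10 members, ASO replicate 3 for 6 and ASO replicate 1 for 1. The same count was not made over all tested genes, so whether this pattern is particular to these members was not tested. The muscle-type group was also drawn up after its values had been seen. The calls of Acta1, Actg2, Tagln, Tagln2, Cnn3, Mylk and Des held when each library in turn was left out. Their adjusted p reached at most 0.0496 in those fits.

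Other genes of the pathway were counted in 4 lists, drawn up from their known roles with earlier results of these data known. Of 31 further cytoskeletal targets of SRF and MRTF, 10 were lower and 0 higher (32.3%, against 14.6% of all tested genes, median log2 fold change -0.23). The number lower was 5 without control replicate 2, 6 without control replicate 4 or ASO replicate 2, and 4 on log2(TPM + 1) with no filter. Pdlim5, a scaffold gene of the actin cytoskeleton, had 320.3 to 351.5 CPM in controls and 191.0 to 246.5 CPM with the ASO (log2 fold change -0.59 ± 0.08, adjusted p = 3.6e-04). The vinculin gene Vcl (-0.65 ± 0.11), the LIM domain gene Fhl2 (-0.38 ± 0.07) and Lima1, whose product crosslinks filaments (-0.32 ± 0.07), fell with it. These 4 were named for the smallest p of the list. None of them had overlapping groups, but some other lower genes of the list did.

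SRF partner factors of the ternary complex family and immediate early targets gave 1 lower and 0 higher of 12 (8.33%, against 14.6% of all tested genes). The lower one was the transcription factor gene Egr2 (log2 fold change -0.40 ± 0.10, adjusted p = 0.016, and 0.054 without control replicate 4). For actin turnover and the Arp2/3 complex, which starts filament branches, 3 of 26 were lower and 1 higher (15.4%, near the 14.6% of all tested genes). The monomer-binding thymosin gene Tmsb4x fell from a mean of 57.1 CPM to 37.7 CPM (-0.60 ± 0.09 on the log2 scale, adjusted p = 9.1e-04), the gelsolin gene Gsn by 0.50 and the destrin gene Dstn by 0.25. Dstn did not pass in samples 1 and 2 alone (adjusted p = 0.10). Capg, which encodes a capping protein, was higher (0.17 ± 0.05, adjusted p = 0.045), but lost its call in each of the 8 fits that left out 1 library (adjusted p up to 0.14), and on both sides of the division (adjusted p = 0.065 and 0.29). Of 11 other myosin genes 1 was lower and 0 higher (9.09%, again against 14.6%). The lower one was Myh14, another non-muscle heavy chain, which fell from 10.1 ± 1.67 to 5.04 ± 1.13 CPM (SD, adjusted p = 0.0015).

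Markers of other cells were counted beside these results. In bulk samples fewer cells of a type and less RNA per cell cannot be told apart. Of 6 smooth muscle genes outside the set, 3 were tested and did not pass (Smtn 0.04, Synpo2 -0.18 and Hspb6 -0.20 on the log2 scale, adjusted p = 0.77, 0.44 and 0.15), and the list's summed level was 235.6 to 287.7 TPM in controls and 229.2 to 240.8 TPM with the ASO. The defining genes Myh11, Myocd and Kcnmb1 had 61, 2 and 2 reads over all 8 libraries, whereas Smtn and Hspb6 were at 101.0 and 153.5 TPM in controls. The 6 skeletal muscle genes summed to 0.340 to 0.430 TPM in controls and 0.670 to 1.5 TPM with the ASO, but 0 of them passed the filter on low counts. Most of this sum was Mb, with 1 to 3 reads per control library and 4 to 12 per ASO library. Actn2 went the other way, with 6 reads in all. Macrophage genes (4 of 6 with a row) summed to 11.1 to 15.7 TPM in controls and 30.2 to 38.0 TPM with the ASO, mostly Cd68, which is also a general lysosomal gene (log2 fold change 1.54, adjusted p = 1.7e-05), with Ptprc at 58 reads in all. Csf1r was at 0.68 and did not pass (adjusted p = 0.052), though its groups did not overlap, and Lyz2 was at -0.27 (adjusted p = 0.43). Endothelial genes (3 of 6 with a row) summed to at most 0.540 TPM in any library. The part of such cells in the results was not tested.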

How the data were processed

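RNA-seq libraries of MLO-Y4 cells were grouped by sample title. The authors deposited 1 table of 16369 genes with estimated counts, FPKM and TPM per library and group means, per the file headers. The submitters' processing notes name HISAT, Bowtie2, GRCm38.p6 and mm10, without roles. Counting tool, annotation and strandedness: not given in the sources used here. Counts, not whole in 6.01% to 6.60% of genes, were rounded, and FPKM and TPM, scaled to gene length by the authors, served for levels and alternatives. Replicates differed by more than sampling noise (chi-square per degree of freedom 4.71 to 18.3).

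Genes were filtered with filterByExpr, TMM-scaled and tested with edgeR 4.0.16 (glmQLFit, glmQLFTest, R 4.3.3), group as the term, with Benjamini-Hochberg adjustment at 0.05 over all 12227 tested genes. The procedure was tried on simulated counts drawn independently for each library, which does not cover deviations that libraries share. Standard errors derive from the F statistic and intervals (95%) from its degrees of freedom. Alternatives used DESeq2 1.42.0 and limma 3.58.1. The rule was to name every member, and of each further list up to 4 called genes with the smallest p. A few members enter the counts but are not reported here by name, nor is a further list. Members and lists were chosen with earlier results of these data known. Same-numbered samples deviated together (correlations 0.1001, 0.1855, 0.2812 and 0.1482, the pairing coming from title numbers alone), but no pair of equal numbers was the best match in both directions (other numbers reached 0.331 and 0.366). The calls reported are without the block, and the closing section counts those it changed. Coordinates are those of RefSeq genes. The targeted H19 is not analysed here.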

Additional observations from a re-analysis of the deposited data

Results flagged for a closer look

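A library lay far from the other 3 of its group in 3 of the 62 sets of 4 libraries examined (31 members in 2 groups), and chance gives about 1 in 20. For Tagln2, ASO replicate 2 was at 328 CPM, below the other ASO libraries at 343 to 346 CPM and still above every control. For Tpm2, control replicate 3 was at 462 CPM, above the other controls at 419 to 425 CPM. For Myl12a, control replicate 4 was at 791 CPM, above the other controls at 740 to 742 CPM.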

How the results depend on the processing

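Of 707 refits of single members under up to 23 alternatives, 668 kept direction and side of the threshold, 16 lost a call, 16 gained one and 7 changed sign, the last all in members that did not pass. Those were Cald1 (0.021), Myh9 (0.00073) and Cfl1 (-0.0064) in samples 1 and 2 alone, Myl6 (0.062) in samples 3 and 4 alone, and, with 1 library left out, Cald1 (up to 0.00036, from -0.080), Mrtfa (up to 0.017, from -0.096) and Cfl1 (down to -0.00068, up to 0.11). The division of samples 1 and 2 from 3 and 4 was drawn from these data, so p-values with it may be too small. With it as a term, 16 members differed (4 higher) and 3136 genes did (1560 higher, 1576 lower). In samples 1 and 2 alone 5 members differed (3 lower) and 1036 genes (507 higher, 529 lower), and in samples 3 and 4 alone 10 members (1 higher, 9 lower) and 2135 genes (1056 higher, 1079 lower). At an adjusted p under 0.01, 5 members differed, 0 higher and 5 lower, and 702 genes did (346 higher, 356 lower). Log2(TPM + 1) with no filter gave 1167 genes (554 higher, 613 lower), and log2(TPM + 0.1) 573 higher. Leaving out 1 library gave 8 to 11 members (1 to 3 higher, 6 to 9 lower) and 1105 to 1940 genes (538 to 965 higher, 567 to 975 lower). The replicate block gave 2575 genes (1267 higher, 1308 lower) and 12 members (3 higher, 9 lower), and lost no member's call, with Tpm3 among the 2 gained. The refits of the named genes outside the set were chosen after seeing the data. Upper-quartile, library-size or DESeq2 scaling in edgeR called 8 lower and 2 higher members, as before. Depth limits Lmod1, Cnn1, Acta2, Des and Acta1, at under 10 CPM.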
